A study of Mus musculus with 6 samples.

Results

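The genes described here encode the proteins that license DNA for replication, open the helix, copy it and supply its nucleotides. They are 48 genes, chosen by name as subunits or direct partners of these machines, and all 48 have a row among the 21960 genes of the counts and enough reads for a test among the 11800 genes tested. The RNA-Seq data hold 3 mock and 3 p140Cap libraries of TuBo, a mammary carcinoma line that comes from a BALB/c mouse with the NeuT oncogene (activated rat Her2/neu) under the MMTV promoter. Both groups therefore carry NeuT and differ in p140Cap, an adaptor protein encoded by Srcin1. The labels give the mock libraries the genotype wt and the p140Cap libraries the genotype overexpressing p140Cap. p140Cap cells were infected with a pBabe-puro retrovirus holding the p140Cap cDNA, selected with puromycin, grown from single cells and pooled from several clones. The paper gives the pooling as a step against artifacts of single clones. A limit of the model remains, because the pooled clones can differ from mock cells in other ways. The labels call the cell line Balb-NeuT and, in another place, speak of mice, and the samples are taken here to be TuBo cells. Nothing in the labels says whether the replicates came from separate cultures, so p-values measure the spread between these libraries, which may be technical. The chi-square between counts of a pair of libraries, averaged over genes, was 1.74 for p140Cap replicates 1 and 3. It was 4.63 and 4.95 for the pairs with p140Cap replicate 2, which thus stood apart. Mock pairs, at greater depth, had 6.9, 8.98 and 11.1.

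Replication is prepared before S phase. The origin recognition complex (ORC) binds DNA, Cdc6 and Cdt1 help it to load the ring of Mcm2 to Mcm7, and geminin (Gmnn) binds Cdt1 and prevents a second loading. Cdc7 with its activator Dbf4 then phosphorylates the ring, and Cdc45 and the GINS complex join it to form the active helicase, after which polymerases alpha, delta and epsilon, the sliding clamp Pcna and its loader copy the strands. Many of these genes are known targets of E2F factors and are transcribed from late G1 into S phase in cycling cells.

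Every mock library (33058719 to 75506562 reads on genes) was deeper than every p140Cap library (13770385 to 15364850). The replication genes had between 377 and 34140 reads in a mock library and between 61 and 4103 in a p140Cap library. Srcin1, the check of the labels, stood at 15.6, 12.8 and 16.6 CPM (reads per 1000000 reads of the TMM-adjusted library size) in the mock libraries and at 2265, 2519 and 2244 CPM in the p140Cap libraries. Epithelial markers summed to 5619 to 6000 CPM in mock and 6596 to 6820 CPM in p140Cap libraries, with Krt19 alone at 5 reads or fewer in each library. Summed leukocyte markers reached at most 0.151 CPM in any library, with 5 of 10 at 0 throughout, Ptprc among them, and endothelial markers at most 1.19 CPM, with 3 of 10 at 0. Fibroblast markers summed to 19.8 to 20.3 CPM in mock and 15.8 to 18.1 CPM in p140Cap libraries. Col1a2, Col3a1, Dcn, Lum and Thy1 were at 0 in every library. Most of the sum came from Postn, Pdgfra and Col1a1. Postn had 785, 367 and 332 reads in mock and 67, 56 and 44 in p140Cap libraries. Pdgfra had 563, 309 and 214 against 104, 125 and 104 reads, and Col1a1 197, 107 and 121 against 68, 82 and 68.

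Stretches upstream of 4 genes are shown first, since letters known as E2F binding motifs are a feature that the choice of genes did not use. Each begins 170 bases before a start listed in the RefSeq promoter table of GRCm38.p6 and ends before the first annotated base of the gene, on the gene's strand. Capitals mark TTTGGCG or TTTCGCG, and also TTTCCCG or TTTGCCG, each read on either strand, so that their reverse complements are marked as well. Mcm6, Mcm5 and Rfc3 hold TTTGGCG or TTTCGCG and were lower in p140Cap cells. They are examples and not the genes of largest change in their subgroups. Of the 28 genes without these letters near the first listed start, 27 were lower too, so the display shows no link of letters to decrease. Orc3 is shown because it was not lower, and its stretch holds TTTCCCG.
Mcm6 (chr1:128359706-128359875, minus strand): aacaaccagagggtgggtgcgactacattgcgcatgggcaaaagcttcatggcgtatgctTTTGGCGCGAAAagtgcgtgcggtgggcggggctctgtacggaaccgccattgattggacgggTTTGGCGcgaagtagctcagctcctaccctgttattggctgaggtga
Mcm5 (chr8:75109339-75109467, plus strand): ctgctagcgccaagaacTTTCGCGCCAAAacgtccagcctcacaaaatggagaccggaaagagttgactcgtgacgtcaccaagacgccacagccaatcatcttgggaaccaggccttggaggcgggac
Rfc3 (chr5:151651209-151651378, minus strand): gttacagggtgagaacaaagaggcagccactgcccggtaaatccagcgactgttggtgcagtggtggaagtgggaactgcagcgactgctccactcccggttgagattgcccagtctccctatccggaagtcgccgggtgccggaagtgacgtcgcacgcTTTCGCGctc
Orc3 (chr4:34614964-34615112, minus strand): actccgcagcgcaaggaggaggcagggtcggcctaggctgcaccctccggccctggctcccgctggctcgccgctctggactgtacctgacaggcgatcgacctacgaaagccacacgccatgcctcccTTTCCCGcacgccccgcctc
In Mcm5 a motif on the plus strand and a motif on the minus strand share letters, and in Mcm6 the same arrangement lies upstream of a further single motif. A start was listed for 40 of the 48 genes. Not listed were Gmnn, Mcm4, Gins1, Gins2, Gins4, Prim2, Pole and Rfc2.

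Replication genes were lower in p140Cap cells almost throughout. With edgeR's quasi-likelihood test and a threshold of 0.05 on the adjusted p, 45 of the 48 genes were lower and 0 were higher, while 35.9% of all genes tested were lower, 35.2% higher and 71.1% either. At an unadjusted p under 0.05, 0 of the 48 were higher as well, and DESeq2 and limma-voom also called 0 higher. The median log2 fold change (p140Cap minus mock) of the 48 genes was -0.75, or 59.6% of the mock level, beside a median of 0.00 for all genes tested. The scaling of libraries holds the all-gene median near that value, so a change in total RNA per cell would not show. For the same 45 genes every p140Cap library lay below every mock library, which held for 37.2% of all genes tested, while 73.4% of all genes tested had no overlap in either direction. A decrease of at least 0.5 log2 units was called for 36 genes (15.5% of all genes tested) and a decrease of at least 1 log2 unit for 13 (5.04% of all genes tested). Together the 48 transcripts took up 5423, 5543 and 5456 CPM in the mock libraries and 3290, 3165 and 3358 CPM in the p140Cap libraries. The genes that were not called are Orc3, Gins2 and Gins4. With all libraries thinned to the smallest total, 45 genes were again called lower. In bulk libraries, a smaller share of cells that hold a transcript and less of it per cell cannot be told apart.

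**Figure D1:**
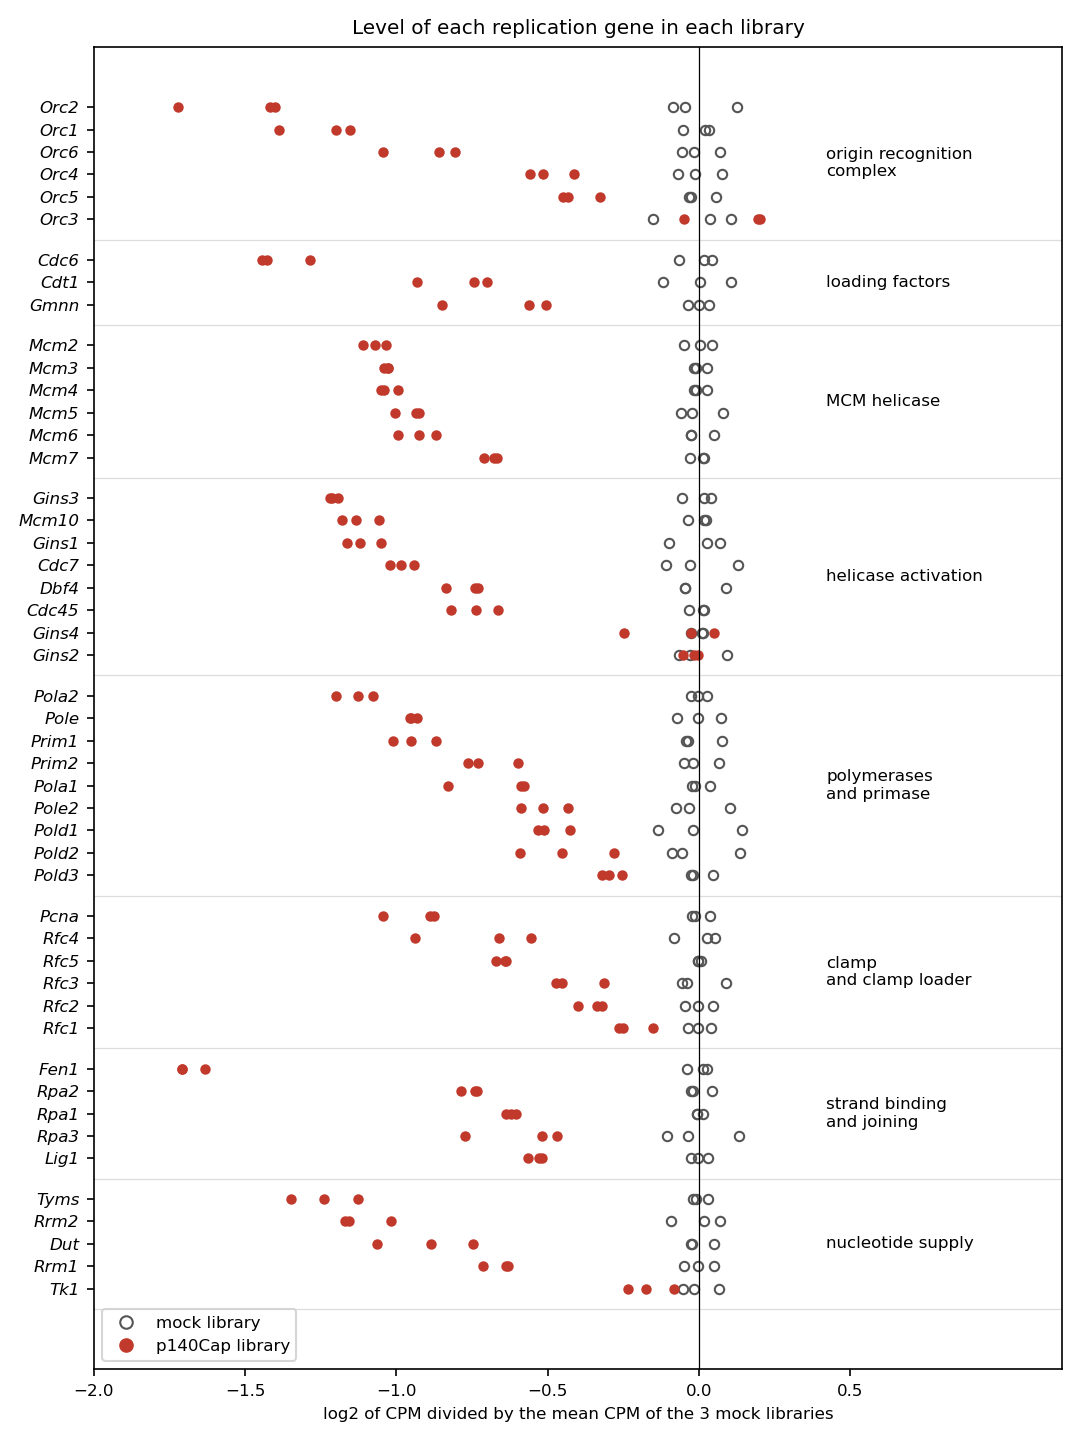
Level of each of the 48 genes in each library, as the log2 of its CPM over the mean of the 3 mock libraries, ordered by role, with open circles for mock and filled circles for p140Cap libraries. The filled circles lie left of all open circles for 45 genes and mix with them for Orc3, Gins2 and Gins4.

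Origin recognition genes did not move as a block. The complex has 6 subunits, of which Orc1 to Orc5 form the ATP-dependent ring that encircles DNA and Orc6 helps to recruit the helicase. Of the 6 genes 5 were lower, and their log2 fold changes spanned the range from -1.51 to 0.12. Orc2 (chr1:58462771-58505113, minus strand) was at 52.7, 59.4 and 51.3 CPM in mock and 20.4, 16.5 and 20.6 CPM in p140Cap libraries. It fell by 1.51 log2 units (SE 0.08, edgeR adjusted p = 1.04e-10), to 35.2% of the mock level. Nif3l1 overlaps Orc2 on the other strand and a predicted gene does so on its own strand, and whether counting used strand is not stated for these data. Orc1, the subunit whose level is known to vary most over the cycle, was the rarest of the 48 transcripts per exon length in both groups. Its values were 11.9, 12 and 11.3 CPM in mock and 5.27, 5.11 and 4.48 CPM in p140Cap libraries, a log2 fold change of -1.24 (SE 0.10, edgeR adjusted p = 9.72e-09). Orc6 followed with a log2 fold change of -0.90 (SE 0.06), and those of Orc4 and Orc5 were smaller, at -0.49 and -0.40. The groups did not overlap for any of these 5 genes.

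Orc3 (chr4:34566781-34614963, minus strand) stood apart from its partners. It was at 69.2, 72.6 and 60.8 CPM in mock and 77.6, 65.3 and 77.3 CPM in p140Cap libraries, and the groups overlapped. The log2 fold change was 0.12 (SE 0.07, edgeR adjusted p = 0.151), and p140Cap replicate 2 was the library that lay inside the mock range. Without that library Orc3 was called higher at a log2 fold change of 0.19, and without mock replicate 2 at 0.17. Akirin2, Rars2 and a predicted gene overlap Orc3 on the other strand. The ratio of Orc2 to Orc3 reads, which no scaling of libraries can alter, was 0.762, 0.819 and 0.843 in mock and 0.263, 0.252 and 0.267 in p140Cap libraries. The mean ratio in p140Cap cells was 32.3% of that in mock cells.

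The loading factors were all lower. Cdc6 (chr11:98907709-98923942, plus strand), the ATPase that completes the loading platform, was at 43.0, 43.8 and 40.6 CPM in mock and 15.6, 15.8 and 17.4 CPM in p140Cap libraries. It fell by 1.39 log2 units (SE 0.07, edgeR adjusted p = 3.05e-11), more than any other licensing gene but Orc2. Cdt1 fell by 0.79 log2 units (SE 0.07) and its inhibitor Gmnn by 0.63 (SE 0.07). The ratio of Cdt1 to Gmnn reads was 0.878, 0.770 and 0.921 in mock and 0.664, 0.949 and 0.724 in p140Cap libraries. These ranges overlapped, and a shift in this ratio was not tested.

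All 6 MCM helicase genes were lower, and 5 of them had log2 fold changes between -1.07 and -0.93. Mcm2 (chr6:88883474-88898780, minus strand) was at 171, 165 and 176 CPM in mock and 79.0, 81.3 and 83.4 CPM in p140Cap libraries, a log2 fold change of -1.07 (SE 0.05, edgeR adjusted p = 1.47e-11). Mcm3 was at 241, 240 and 247 CPM against 118, 119 and 119 CPM, Mcm4 at 202, 207 and 201 CPM against 102, 98.9 and 98.2 CPM. Mcm5 fell by 0.95 and Mcm6 by 0.93 log2 units. Mcm7 (chr5:138164583-138172111, minus strand) fell least, by 0.68 log2 units (SE 0.05, edgeR adjusted p = 1.1e-09), with 274, 282 and 283 CPM in mock and 175, 171 and 176 CPM in p140Cap libraries. Mcm7 hosts the microRNA genes Mir25, Mir93 and Mir106b on its own strand, and Cops6 and Ap4m1 overlap it on the other. The ratio of Mcm2 to Mcm7 reads was 0.622, 0.586 and 0.623 in mock and 0.451, 0.475 and 0.473 in p140Cap libraries, without overlap. The proteins assemble in equal numbers in the ring. The 6 genes lie on 5 different chromosomes.

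Per kilobase of annotated exon, the MCM transcripts were common and most ORC transcripts were rare. In RPKM, which is CPM divided by the exon length in kilobases and was computed here, Mcm6 was at 52.1 ± 1.58 and Mcm7 at 49.8 ± 0.793 RPKM in mock cells (SD, n = 3), and Mcm2 was the lowest of the ring at 21.5 ± 0.684 RPKM. In p140Cap cells the order of the upper pair turned, with Mcm7 at 31.0 ± 0.458 and Mcm6 at 27.4 ± 1.14 RPKM (SD, n = 3). By the longest coding transcript in place of all exons, Mcm7 was the highest and Mcm4 the lowest of the ring in both groups, so the lowest gene in both groups, and the highest in mock cells, depend on the length used. Orc6 was the most abundant ORC transcript under both lengths, at 23.0 ± 1.03 RPKM in mock and 12.3 ± 1.05 RPKM in p140Cap cells (SD, n = 3). Orc1 was the lowest, at 2.04 ± 0.0646 and 0.862 ± 0.0728 RPKM (SD, n = 3). Pcna led the 48 genes in both groups, with 189 ± 4.07 RPKM in mock and 98.7 ± 6.22 RPKM in p140Cap cells (SD, n = 3).

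**Figure D2:**
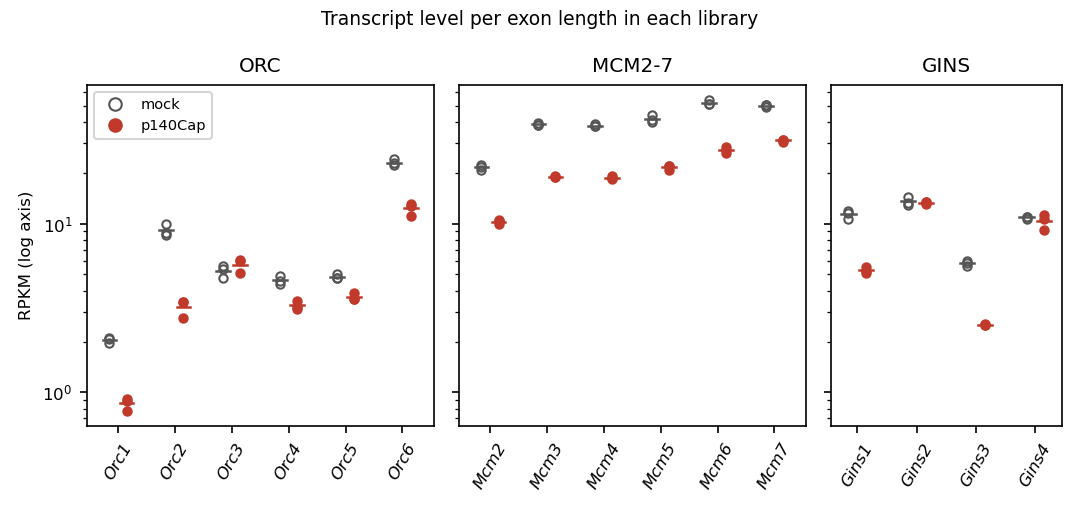
Level per exon length (RPKM, log axis) of the ORC, Mcm2 to Mcm7 and GINS genes in each library, with points for libraries and bars for means of 3. All 6 MCM genes shifted down, Mcm7 by the smallest step, whereas Orc3, Gins2 and Gins4 sat at nearly the same height in both groups.

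Of the helicase activation genes 6 were lower. These were Mcm10, Cdc45, Cdc7, Dbf4, Gins1 and Gins3, whereas Gins2 and Gins4 were not called. Mcm10, which helps the loaded helicase to start unwinding, was at 63.9, 64.2 and 61.6 CPM in mock and 30.4, 27.9 and 28.8 CPM in p140Cap libraries (log2 fold change -1.12, SE 0.06, edgeR adjusted p = 4.1e-11). Cdc7, the kinase that triggers firing, fell by 0.98 log2 units (SE 0.07), and Dbf4, its activating subunit, by 0.77 (SE 0.06). Cdc45, the helicase partner, fell by 0.74 log2 units (SE 0.06).

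GINS is a complex of 4 different subunits in equal numbers, and its transcripts diverged. Gins3 was at 18.6, 18.9 and 17.7 CPM in mock and 8.04, 7.90 and 7.93 CPM in p140Cap libraries (log2 fold change -1.21, SE 0.08, edgeR adjusted p = 1.16e-09). Gins1 was at 21.1, 23.7 and 23.0 CPM against 10.9, 10.1 and 10.4 CPM, a log2 fold change of -1.10 (SE 0.08). Both were less than 50% of their mock level in p140Cap cells. Gins2 was at 54.3, 53.0 and 59.1 CPM in mock and 53.5, 55.4 and 54.9 CPM in p140Cap libraries (log2 fold change -0.02, SE 0.06, edgeR adjusted p = 0.752). Gins4 was at 53.5, 54.8 and 55.0 CPM against 56.4, 45.8 and 53.5 CPM (log2 fold change -0.07, SE 0.06, edgeR adjusted p = 0.363). The 2 subunits with more reads therefore overlapped between groups and the 2 with fewer reads did not. The ratio of Gins1 to Gins2 reads was 0.388, 0.447 and 0.390 in mock and 0.205, 0.182 and 0.190 in p140Cap libraries, and the mean ratio of Gins3 to Gins4 reads was 45.7% of that in mock cells. Gse1 overlaps Gins2 and a predicted gene overlaps Gins1 on the other strand, while no annotated gene overlaps Gins3 or Gins4. The ratios use pairs chosen after their values were seen and are given without a test, and since 73.4% of single genes tested did not overlap between groups, nothing is read from how many pairs were separated.

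All 9 polymerase and primase genes were lower. Polymerase alpha with its primase starts each strand, and its catalytic Pola1 fell by 0.66 log2 units (SE 0.06) and its accessory Pola2 by 1.14 (SE 0.06). The primase subunits Prim1 and Prim2 had log2 fold changes of -0.94 and -0.70. Pola2 (chr19:5940543-5964238, minus strand) was at 50.3, 49.3 and 48.5 CPM in mock and 22.6, 21.5 and 23.4 CPM in p140Cap libraries. Polymerase epsilon copies the leading strand, and its catalytic Pole was at 113, 107 and 102 CPM in mock and 56.2, 55.4 and 55.5 CPM in p140Cap libraries (log2 fold change -0.95, SE 0.05, edgeR adjusted p = 1.21e-10). Pole2, its second subunit, fell by 0.51 log2 units (SE 0.06). The genes of polymerase delta, which makes the lagging strand, changed least, with log2 fold changes of -0.49 for Pold1, -0.44 for Pold2 and -0.29 for Pold3. Pold3 was still separated between groups, with 76.9, 80.5 and 76.5 CPM in mock and 62.4, 65.3 and 63.5 CPM in p140Cap libraries. The ratio of Pole to Pole2 reads was lower in every p140Cap library, at 73.8% of its mock mean, whereas the ratio of Pold1 to Pold3 reads overlapped between groups.

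All 6 genes of the clamp and its loader were lower. Pcna (chr2:132249286-132253180, minus strand), the ring that holds polymerases on DNA, was at 446, 465 and 450 CPM in mock and 245, 220 and 247 CPM in p140Cap libraries (log2 fold change -0.94, SE 0.05, edgeR adjusted p = 1.49e-10). Rfc1, the large subunit of the loader, was at 133, 137 and 130 CPM against 112, 111 and 120 CPM (log2 fold change -0.22, SE 0.05, edgeR adjusted p = 0.000605). The log2 fold changes of Rfc2 and Rfc3 were -0.35 and -0.41, and those of Rfc4 and Rfc5 -0.71 and -0.65. The ratio of Pcna to Rfc1 reads was 3.35, 3.4 and 3.47 in mock and 2.18, 1.98 and 2.06 in p140Cap libraries, without overlap. Pcna, like Tyms, has annotated pseudogenes, and reads shared with them could make both counts less certain.

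Among the genes that protect single strands and join fragments, Fen1 changed most, and most of all 48. Fen1 (chr19:10199132-10204393, minus strand), the nuclease that trims the flaps of Okazaki fragments, was at 109, 113 and 114 CPM in mock and 34.3, 34.3 and 36.1 CPM in p140Cap libraries. It fell by 1.68 log2 units (SE 0.05, edgeR adjusted p = 2.82e-13), to 31.3% of the mock level, and stood at position 210 of all genes tested when ordered from the lowest log2 fold change. Lig1, the ligase that seals the trimmed ends, fell by 0.54 log2 units (SE 0.05), with 177, 180 and 184 CPM in mock and 125, 122 and 126 CPM in p140Cap libraries. The ratio of Fen1 to Lig1 reads was 0.613, 0.626 and 0.618 in mock and 0.275, 0.281 and 0.287 in p140Cap libraries, so the groups did not overlap. Rpa1, Rpa2 and Rpa3, the subunits of the single-strand binding protein, had log2 fold changes of -0.62, -0.75 and -0.58. Tmem258 and a predicted gene overlap Fen1 on the other strand. Fen1 and Pola2 are the 2 genes on chromosome 19, where the median log2 fold change of all 424 tested genes was -0.34. The part of that shift in their values was not tested. Without both genes, the median of the other 46 was -0.72, with 43 called lower.

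All 5 nucleotide supply genes were lower, with log2 fold changes from -1.24 to -0.16. Tyms (chr5:30038546-30073645, minus strand), which makes thymidylate from deoxyuridylate, was at 112, 113 and 116 CPM in mock and 52.0, 44.6 and 48.1 CPM in p140Cap libraries (log2 fold change -1.24, SE 0.06, edgeR adjusted p = 1.51e-11). Rrm2, the small subunit of ribonucleotide reductase, which is limited to S phase, was at 264, 274 and 245 CPM against 116, 117 and 129 CPM (log2 fold change -1.12, SE 0.06, edgeR adjusted p = 4.58e-11). Its partner Rrm1 fell by 0.66 log2 units (SE 0.05), and Dut, which removes dUTP, by 0.89 (SE 0.07). Tk1, which salvages thymidine, was at 201, 196 and 213 CPM in mock and 180, 173 and 192 CPM in p140Cap libraries (log2 fold change -0.16, SE 0.05, edgeR adjusted p = 0.00908). The lowest mock library and the highest p140Cap library of Tk1 were thus only a few CPM apart. The ratio of Tyms to Tk1 reads, the pair that makes thymidylate by synthesis and by salvage, was 0.558, 0.577 and 0.542 in mock and 0.290, 0.257 and 0.251 in p140Cap libraries.

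**Figure D3:**
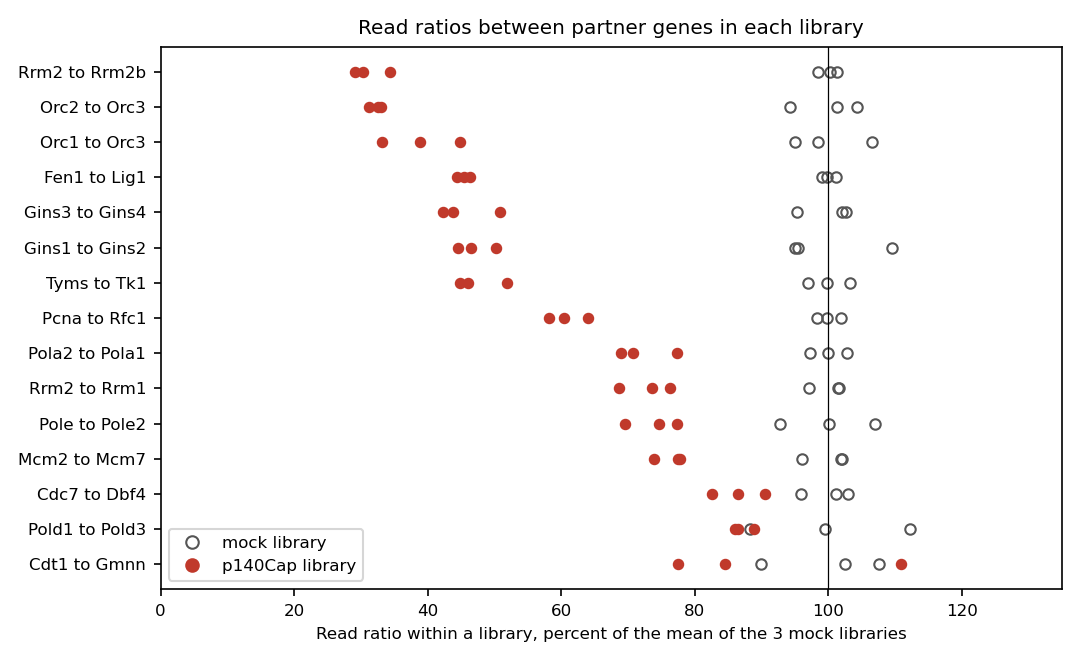
Ratio of reads of 15 pairs of partner genes within each library, as percent of the mean of the 3 mock libraries, with open circles for mock and filled circles for p140Cap libraries. The ratios of Pold1 to Pold3 and of Cdt1 to Gmnn overlapped between groups, and the ratio of Rrm2 to Rrm2b was the lowest of the 15, at 31.3% of its mock mean.

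Side by side, the medians of the log2 fold change were -0.99 for the MCM helicase, -0.89 for nucleotide supply, -0.87 for helicase activation and -0.79 for the loading factors. They were -0.70 for the ORC, -0.66 for polymerases and primase, -0.62 for strand binding and joining and -0.53 for the clamp and its loader. Subgroups hold 3 to 9 genes and their ranges overlapped, so this order is a description. In the single p140Cap libraries, the median difference from the mock mean lay between -1.01 and -0.97 for the MCM genes and between -0.56 and -0.50 for the clamp and loader genes. The MCM genes had the narrowest range and the ORC genes the widest, followed by helicase activation. Summed over genes, the MCM transcripts fell from 1464 ± 20.1 to 770 ± 7.47 CPM and the ORC transcripts from 292 ± 17.3 to 201 ± 11 CPM (SD, n = 3).

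Other genes of the pathway, listed by role, moved the same way for the most part. Of 53 such genes, all of them tested, 44 were lower and 6 were higher, with a median log2 fold change of -0.69. Of all genes tested, 35.9% were lower and 35.2% higher. Of the 15 genes for helicase activation and fork protection, 14 were lower (Mcm8 among them lost its call without p140Cap replicate 2, at an edgeR adjusted p of 0.0874), led by Wdhd1 (log2 fold change -1.48, SE 0.08), which couples polymerase alpha to the helicase, and by Dna2 (log2 fold change -1.43, SE 0.07), a nuclease that like Fen1 trims flaps. Donson, which helps to place GINS on the helicase, followed with -1.18 (SE 0.08). Of the 11 chromatin assembly and maintenance genes 10 were lower, with log2 fold changes of -1.06 for Asf1b (SE 0.05), -0.86 for Chaf1a (SE 0.06) and -0.79 for Uhrf1 (SE 0.05). Asf1b and Chaf1a carry histones to new DNA, and Uhrf1 guides maintenance methylation there. Tonsl, which reads new histones, was higher by a log2 fold change of 0.13 (SE 0.05, edgeR adjusted p = 0.0226), a call lost under some alternatives, where the adjusted p reached 0.104.

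A mixed list of 14 further fork genes had log2 fold changes at a median of -0.39, with 11 lower and 1 higher. It holds accessory polymerase subunits (Pold4, Pole3 and Pole4), alternative loader subunits (Chtf18, Chtf8, Dscc1 and Atad5), RNase H2 (Rnaseh2a, Rnaseh2b and Rnaseh2c), the topoisomerases Top1 and Top2a, the translesion polymerase Polh, and Pclaf. Dscc1, part of an alternative clamp loader, fell by 0.93 log2 units (SE 0.10), and Pclaf, a Pcna-binding protein listed in the counts as 2810417H13Rik, fell by 0.74 log2 units (SE 0.06). Pold4, the smallest subunit of polymerase delta, rose from 23.3 ± 2.03 to 41.2 ± 1.19 CPM (SD, n = 3), or by 0.83 log2 units (SE 0.07, edgeR adjusted p = 1.23e-08). Its sign was opposite to that of Pold1, Pold2 and Pold3.

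The further genes of nucleotide supply went both ways, with 9 of 13 lower and 4 higher. The lower genes included Cad, which starts pyrimidine synthesis (log2 fold change -1.59, SE 0.05, edgeR adjusted p = 3.2e-13), Gart, of purine synthesis (log2 fold change -1.37, SE 0.05), and Mthfd1, of the folate cycle (log2 fold change -1.37, SE 0.05). Higher were Rrm2b, Dck, Tk2 and Samhd1, with log2 fold changes of 0.56, 0.45, 0.38 and 0.20. Rrm2b encodes the reductase subunit used outside S phase, Dck and Tk2 salvage deoxynucleosides, and Samhd1 degrades deoxynucleotides. Reads of Rrm2 stood to those of Rrm2b as 10.6, 10.9 and 10.8 in mock and as 3.13, 3.27 and 3.70 in p140Cap libraries. Rrm2b, Dck, Tk2, Samhd1 and Tonsl were named after their values were seen.

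**Figure D4:**
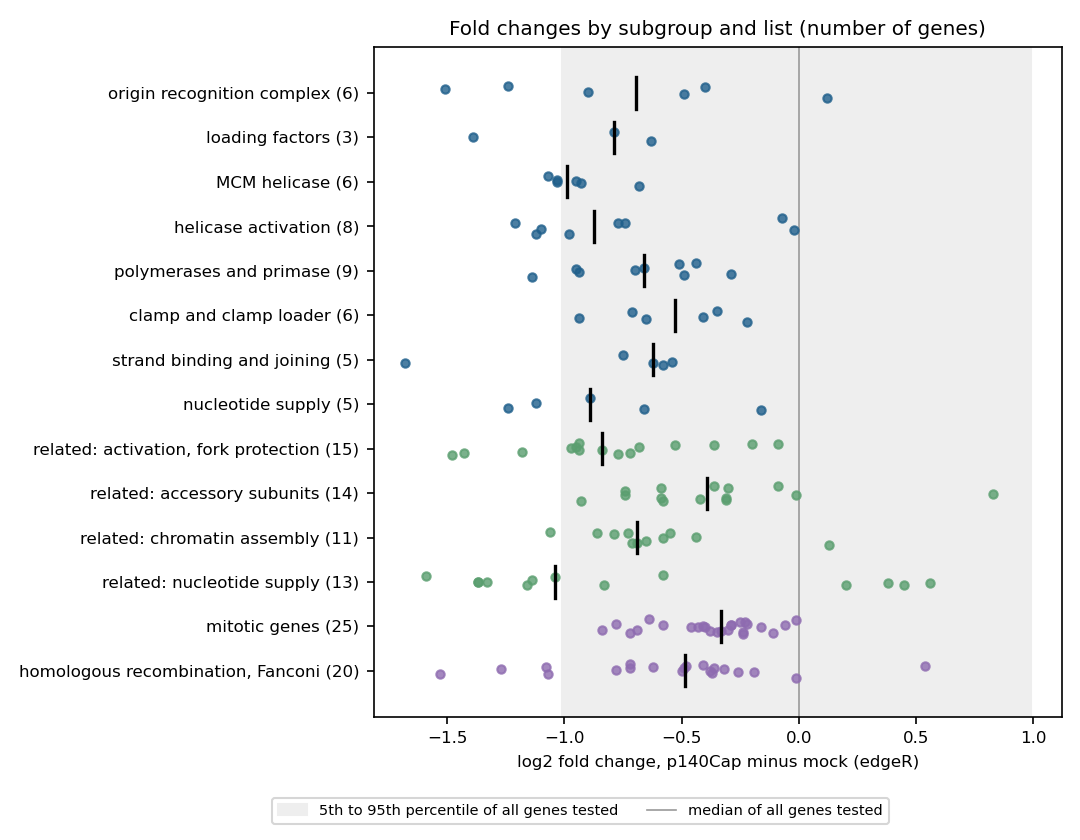
Log2 fold changes (p140Cap minus mock) of the replication subgroups (blue), related replication genes (green) and comparison lists (purple), with the median of each list as a black bar and the 5th to 95th percentile of all genes tested (-1.01 to 0.99) as a grey band. The bar of the mitotic genes (-0.33) lies right of the bars of all replication subgroups (-0.99 to -0.53).

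Mitotic and repair genes had medians closer to 0 than the 48 replication genes, with the mixed list of further fork genes (-0.39) between them. Of all genes tested, 35.9% were lower and 35.2% higher. Of 25 mitotic genes, such as Cdk1, Plk1 and Mki67, 22 were lower and 0 were higher (0 also at an unadjusted p under 0.05, by DESeq2 and by limma-voom), with log2 fold changes at a median of -0.33 and a range from -0.84 to -0.01. None of the 25 fell by 1 log2 unit, against 13 of the 48 replication genes. Of 20 genes of homologous recombination and Fanconi repair, 17 were lower and 1 was higher, with log2 fold changes from -1.53 to 0.54 around a median of -0.49. A decrease of at least 1 log2 unit was called for 4 of these 20, and for 5.04% of all genes tested. Palb2, counted as lower, lost its call without p140Cap replicate 2 (edgeR adjusted p = 0.118) and with libraries thinned. The difference between these lists was not tested.

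TTTGGCG or TTTCGCG, on either strand, was found near the start of 12 of the 40 genes with a listed start (30%, first window listed for each gene), and in 2.39% of all 27025 genes searched the same way. The window ran from 250 bases before to 50 bases after the start. The 27025 genes were not limited to genes tested here or matched for base content, so the shares are not those of expressed genes. The 12 genes are Orc1, Cdt1, Mcm3, Mcm5, Mcm6, Mcm7, Mcm10, Pola1, Pola2, Pole2, Rfc3 and Rpa1. All 12 were lower in p140Cap cells, with log2 fold changes centred on a median of -0.86, and of the 28 genes without the letters in that window 27 were lower, with a median of -0.75. Orc4 and Lig1, counted among the 28, hold the letters in a further listed window, so that over any window the share was 14 of 40 genes (35%), and 2.68% of all genes. These are only part of the forms that E2F factors are known to bind. With TTTCCCG and TTTGCCG added, which was done after seeing the data, 19 of the 40 genes (47.5%) and 6.85% of all genes held a form, and Orc3, Cdc6 and Fen1 were among the 19. Of these 19 genes 18 were lower (median -0.79 on the log2 scale), and all 21 genes without a form in the first window were lower (median -0.75). The letters CCAAT on either strand, which NF-Y binds, were present in 22 of the 40 genes (55%) and in 37.9% of all genes. All 22 were lower (median -0.91), as were 17 of the 18 without CCAAT (median -0.68). The difference was not tested. TTTGAA or TTCGAA, the letters of the cell cycle homology region, were present in 8 of the 40 (20%) and in 19.4% of all genes. The motifs can overlap, and a match or its absence says only what the letters are.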

How the data were processed

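Libraries came from a TruSeq Stranded kit and a NextSeq 500 run, and docker4seq handled the reads. The submitters' processing notes list STAR 2.5, RSEM 0.1.1 and mm10. The paper also names GRCm39 as a mouse reference, so the build behind the counts is uncertain. The authors deposited counts, the whole number of reads per gene in each library, without normalization and with replicates apart. For the annotation release and for strand in counting: not given in the sources used here.

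Counts were analysed in R 4.3.3. Genes were filtered with filterByExpr, scaled with TMM factors and tested with edgeR 4.0.16 (quasi-likelihood, group as the only term, Benjamini-Hochberg over all 11800 genes). SE is the absolute log2 fold change over the square root of F. Alternatives used DESeq2 1.42.0 and limma 3.58.1 (voom). The 3 tools were also run on simulated counts with few changed genes, balanced in direction, and a single spread for all genes. These data differ from that setting, so nothing is drawn from the simulation. All 48 genes are named, with the 3 called genes of largest change in each related list. The genes and lists were chosen with earlier results of these data known, and the pairs for read ratios after their values were seen. Positions are from RefSeq GRCm38.p6. Exon lengths and overlaps are from GENCODE M39 (GRCm39), matched by identifier for 21649 of 21960 genes. Annotated genes overlap 12 of the 48 on the same strand and 28 on the other, and 19 have no overlap, of which 18 were lower.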

Additional observations from a re-analysis of the deposited data

How the results depend on the processing

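In each of the 13 alternative fits 45 of the 48 genes were called lower, and after leaving out the members on chromosome 19, an alternative chosen after seeing the data, 43 of 46 were. The number called higher was 0 except without mock replicate 2 or without p140Cap replicate 2, where it was 1 (Orc3), a range of 0 to 1 over left-out libraries. With a library left out, the log2 fold change of Gins2 lay between -0.05 and 0.02 (highest without mock replicate 3) and that of Gins4 between -0.13 and 0.01 (highest without p140Cap replicate 2), never called. The cause was not tested. Without a filter on low counts the medians were -1.02 for the MCM helicase, -0.91 for helicase activation and -0.56 for the clamp and its loader. That setting shifted the median of all genes to -0.059. With a library left out, the median of helicase activation lay between -0.91 and -0.84, that of polymerases and primase between -0.70 and -0.58 and that of the clamp and its loader between -0.55 and -0.49. Without Pola2, on chromosome 19, the polymerase median was -0.59. With the longest coding transcript as length, the highest MCM level was 94.4 RPKM in mock and 58.8 RPKM in p140Cap cells, and the highest ORC level 34.3 and 18.4 RPKM. The lowest MCM level was then 1.15 and 1.05 times the highest ORC level. With the replicate block, 45 genes were lower and 0 higher. Same-numbered libraries did not deviate together (correlations of -0.03, -0.106 and -0.057), and no library correlated best with its own number. Deviations from means of 3 libraries cannot exclude that same-numbered libraries were prepared together. With 3 libraries a group, an exact permutation test cannot give a p below 0.1. With TTTCCCG and TTTGCCG added to the E2F letters after seeing the data, 19 genes in place of 12 held them, since more forms were searched. Over all alternatives, 43 to 45 of the 53 related genes were lower and 5 to 6 higher, 22 to 23 mitotic genes were lower, and 16 to 18 repair genes were lower and 1 higher.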
